A study of Mus musculus with 6 samples.

Results

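The 10 genes described here carry the insulin signal from the cell surface to the glucose transporters of muscle: the receptor Insr, the adaptors Irs1 and Irs2, the phosphoinositide 3-kinase subunit Pik3r1, the kinases Akt1 and Akt2, their Rab GTPase-activating substrates Tbc1d1 and Tbc1d4, and the transporters Slc2a4 (GLUT4) and Slc2a1 (GLUT1). They were chosen by symbol, and all 10 of 10 were present among the 23238 distinct symbols of the count tables and passed the filter on low counts. The samples were gastrocnemius, a calf muscle, from C57/BL6J wild-type mice aged 26 months. For 30 days the animals were given by mouth either vehicle, 5% DMSO in saline (3 libraries), or farnesol at 350 mg/kg (3 libraries). Farnesol is an isoprenoid alcohol related to the lipid that farnesyltransferase attaches to proteins. The labels do not name the carrier of the farnesol dose or the sex of the animals. The sample titles call the libraries biological replicates, but no label names the mouse behind each library. No young or untreated muscle and no insulin-stimulated muscle was analysed here, so all values describe aged muscle in a feeding state the labels do not give.

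In skeletal muscle insulin binds its receptor tyrosine kinase, which phosphorylates the IRS adaptors. These recruit phosphoinositide 3-kinase, whose lipid product activates Akt, and Akt phosphorylates TBC1D4 (AS160) and TBC1D1, which lifts their brake on the Rab proteins that move GLUT4 vesicles to the surface. GLUT4 carries insulin- and contraction-stimulated glucose uptake into the fibre, while GLUT1 is a widely expressed transporter that is abundant in endothelium and the nerve sheath. Most of this control acts on the proteins, so transcript levels show neither the amount of each protein nor the activity of the pathway.

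Libraries held 9895700 to 12707751 counts, and the 10 genes together took 0.0692% to 0.102% of each. Vehicle replicate 3 and farnesol replicate 1 stood apart in composition: the ribosomal precursor Rn45s took 9.92% and 4.97% of their counts, against 12.5% to 15.4% in the other 4 libraries, and titin took 7.15% and 5.77% against 8.24% to 8.70%. The groups overlapped in the Rn45s share (exact two-sided permutation p = 0.8; the smallest p that 3 against 3 libraries allow is 0.1). For many of the genes below, the value without one or the other of these libraries is given. Fast fibre markers summed to 84958 to 123397 CPM, as the muscle label implies, and no marker of any list named below was at 0 counts in all libraries. CPM are counts divided by the TMM-scaled library size and multiplied by a common factor.

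Promoter windows were taken from RefSeq on GRCm38.p6, the assembly that mm10 also denotes, and were found for 8 of the 10 genes, in 14 windows; Insr and Slc2a4 had no entry. The 250 bases before a start site are shown for the adaptors Irs1 and Irs2, whose libraries were spread most widely, and for Pik3r1, which binds them. All are written 5′ to 3′ on the minus strand, Irs1 from chr1:82291440-82291689, Irs2 from chr8:11008930-11009179 and Pik3r1 from chr13:101768218-101768467. Capitals mark matches on either strand to GGGCGG (a GC box), CACGTG (an E-box), GTAAACA (a forkhead element) or TGTTTTG (the core of the insulin response sequence).
Irs1: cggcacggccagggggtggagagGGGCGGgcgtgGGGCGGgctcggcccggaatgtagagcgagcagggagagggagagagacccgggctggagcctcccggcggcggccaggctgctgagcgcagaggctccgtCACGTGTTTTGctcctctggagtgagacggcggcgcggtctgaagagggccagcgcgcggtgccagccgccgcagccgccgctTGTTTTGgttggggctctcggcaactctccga
Irs2: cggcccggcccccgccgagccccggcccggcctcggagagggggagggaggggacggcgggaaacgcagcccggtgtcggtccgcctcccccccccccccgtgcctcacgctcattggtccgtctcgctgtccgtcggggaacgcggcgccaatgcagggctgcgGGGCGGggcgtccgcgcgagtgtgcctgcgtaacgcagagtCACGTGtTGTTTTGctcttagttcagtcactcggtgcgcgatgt
Pik3r1: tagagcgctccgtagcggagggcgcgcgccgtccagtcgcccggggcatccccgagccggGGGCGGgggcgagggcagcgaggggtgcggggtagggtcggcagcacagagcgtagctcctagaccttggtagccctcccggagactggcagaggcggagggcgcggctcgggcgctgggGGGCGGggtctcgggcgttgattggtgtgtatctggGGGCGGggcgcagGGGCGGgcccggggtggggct
Irs1 and Irs2 were the only 2 of the 8 genes with an E-box, which 6.02% of all 32851 promoter windows of this length hold, and the only 2 with TGTTTTG, which 5.56% hold. In Irs2 the E-box began 44 bases and TGTTTTG 37 bases before the start site, with 1 base between them. In Irs1 the E-box at 115 bases overlapped a match to the response core at 111 bases, and another such match began 32 bases before the start. The Pik3r1 window shown held 4 GC boxes, a motif found in 32.7% of windows and in 8 of the 14 windows of these genes. The other Pik3r1 window, before the start site at 101692630, held 0 matches to each motif. GTAAACA, in 3.17% of windows, was found once, upstream of Akt1. These are matches of letters and not evidence of binding.

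Farnesol was compared with vehicle to see whether the transcripts of this pathway differ in aged muscle after feeding. None of the 10 genes passed: edgeR's quasi-likelihood test called 0 at an adjusted p of 0.05 over all 11674 genes tested, where it called 0% of all genes, and 0 had an unadjusted p under 0.05, against 3.01% of all genes. DESeq2 and limma-voom also called 0 of the 10. The fitted folds of farnesol over vehicle ran from 0.811 (Tbc1d1 and Irs1) to 1.08 (Slc2a4), 7 lower and 3 higher. The median log2 fold change of the 10 was −0.08, beside −0.01 over all genes tested. All 10 of the 95% intervals included 1, and none reached below 0.469 or above 1.53. All 10 lay above the filter in both groups, with means of 86.3 (Slc2a1) to 3087 counts (Slc2a4) per library.

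**Figure D1:**
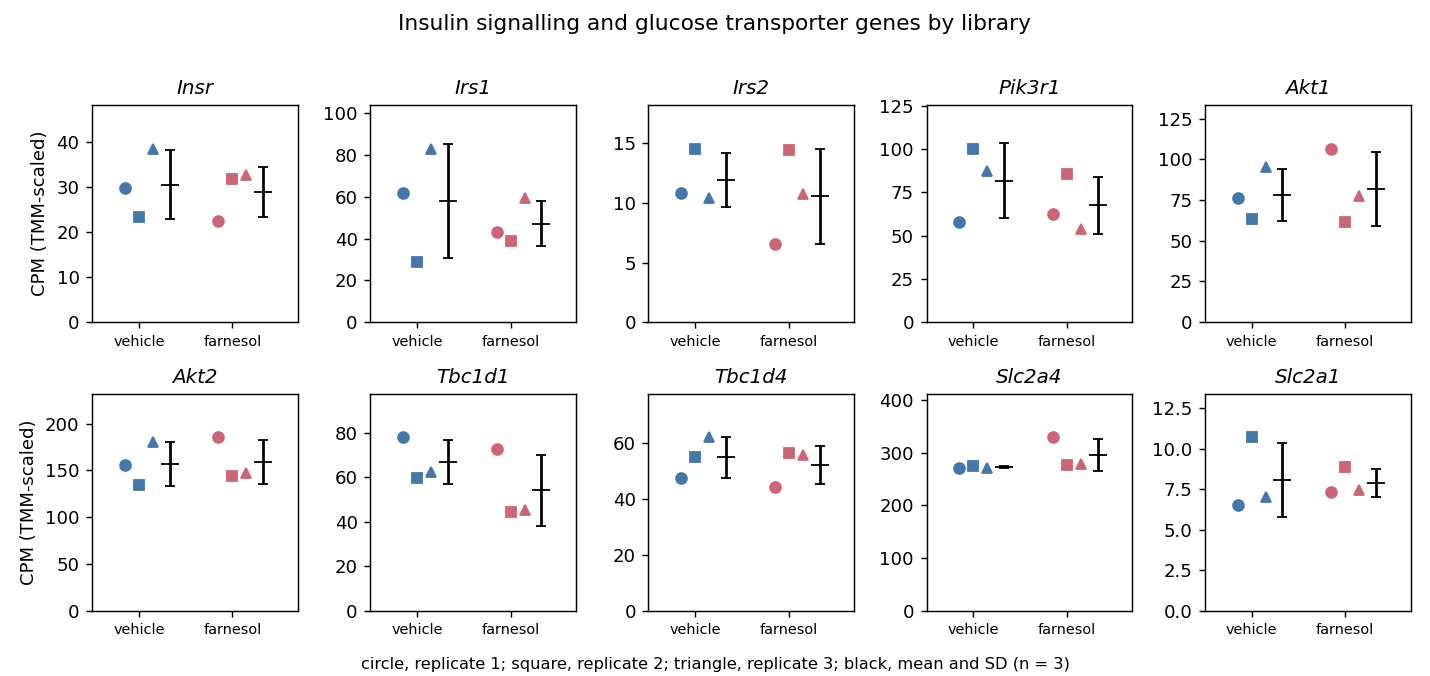
TMM-scaled CPM of each gene (vertical axes from 0) in the 3 vehicle (blue) and 3 farnesol (red) libraries, with symbols for the replicates and black bars for the mean and SD of 3. The groups overlap in every panel but Slc2a4, whose vehicle libraries lie at 272 to 275 CPM and farnesol libraries at 276 to 330 CPM.

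The insulin receptor gene Insr (chromosome 8, 3150922 to 3279649, GRCm38.p6) stood at 29.7, 23.4 and 38.6 CPM in vehicle replicates 1, 2 and 3 and at 22.6, 31.7 and 32.6 CPM in farnesol replicates 1, 2 and 3. The farnesol values lay inside the vehicle range except replicate 1, which was the lowest library of the 6. Group means were 30.6 ± 7.63 and 29.0 ± 5.56 CPM (SD, n = 3), a fold of 0.947 (95% interval 0.693 to 1.29; edgeR adjusted p = 1). The direction depended on single libraries: the log2 fold change of Insr was −0.08 in all libraries, 0.12 without vehicle replicate 3 and 0.07 without farnesol replicate 1.

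Irs1 (chromosome 1, 82233105 to 82291439), an adaptor that couples the receptor to phosphoinositide 3-kinase, was the most variable of the 10 in vehicle muscle. It was at 62.0, 28.8 and 83.1 CPM in the vehicle libraries and at 43.2, 39.1 and 59.2 CPM in the farnesol libraries. The lowest and the highest library were both vehicle, so the farnesol values lay wholly within the vehicle range. The coefficient of variation was 47.2% in vehicle and 22.6% in farnesol, and the SD of 27.4 CPM in vehicle compared with 2.30 CPM given by counting error alone. The fold was 0.811 (0.469 to 1.40). Without vehicle replicate 2 the log2 fold change was −0.62 (edgeR unadjusted p = 0.00658, adjusted p = 0.998) and without vehicle replicate 3 it was 0.05, on the other side of 0.

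Irs2 (chromosome 8, 10984681 to 11008929), the second adaptor and a known target of FoxO factors, was measured at 10.8, 14.6 and 10.4 CPM in vehicle and 6.52, 14.5 and 10.7 CPM in farnesol libraries. Farnesol replicate 1 was the lowest library, and the other 2 farnesol values lay within the vehicle range. The fold was 0.887 (0.577 to 1.36), from 74 to 173 counts per library. Without farnesol replicate 1 the log2 fold change was 0.08 in place of −0.17. The antisense gene 9530052E02Rik overlaps an exon of Irs2 and was listed with 0 counts in all libraries.

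Pik3r1 (chromosome 13, 101680761 to 101768217) encodes p85α and its shorter forms, the regulatory subunits of phosphoinositide 3-kinase, which a count near the 3′ end does not separate. Vehicle libraries held 57.7, 100 and 87.0 CPM and farnesol libraries 62.7, 85.8 and 53.8 CPM. Vehicle replicates 2 and 3 and farnesol replicate 2 were high and the other 3 libraries low, so each group held both levels. The means were 81.6 ± 21.7 and 67.4 ± 16.5 CPM and the fold 0.826 (0.614 to 1.11). Leaving out any 1 of the 6 libraries kept Pik3r1 lower, at log2 fold changes of −0.49 to −0.10. Its unadjusted p in edgeR was 0.0327 without vehicle replicate 1 and 0.0392 without farnesol replicate 2, with adjusted p of 1 and 0.997.

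Akt1 (chromosome 12, 112653821 to 112674884), the widely expressed Akt kinase, was found at 75.9, 63.4 and 95.002 CPM in vehicle and 107, 61.2 and 77.4 CPM in farnesol libraries. Farnesol held both the highest and the lowest library. Akt2 (chromosome 7, 27591552 to 27640826), the form that insulin-stimulated glucose uptake is known to need, was at 155, 135 and 181 CPM in vehicle and 186, 144 and 148 CPM in farnesol libraries. Vehicle replicate 3 and farnesol replicate 1, the libraries with the lowest Rn45s share, were the highest of the 6 for both kinases, and the part of composition in this was not tested. Folds were 1.05 (0.786 to 1.39) for Akt1 and 1.01 (0.804 to 1.27) for Akt2. Without farnesol replicate 1 the log2 fold changes were −0.18 and −0.11.

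Tbc1d1 (chromosome 5, 64156305 to 64351486), the Rab GTPase-activating protein that also answers to AMP-activated protein kinase in contraction, had the smallest unadjusted p of the 10 in edgeR, 0.136. It was at 78.1, 59.7 and 62.5 CPM in vehicle and 72.7, 44.6 and 45.2 CPM in farnesol libraries. Farnesol replicates 2 and 3 lay below every vehicle library, while farnesol replicate 1 was the second highest of the 6. The means were 66.8 ± 9.92 and 54.2 ± 16.1 CPM and the fold 0.811 (0.613 to 1.07). Without farnesol replicate 1 the log2 fold change was −0.57 in place of −0.30 (edgeR unadjusted p = 0.00559, adjusted p = 1), and without vehicle replicate 1 it was −0.17.

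Tbc1d4 (chromosome 14, 101442360 to 101609281), the closely related AS160, was at 47.5, 55.1 and 62.1 CPM in vehicle and 44.2, 56.3 and 55.6 CPM in farnesol libraries. Farnesol replicate 1 was the lowest library, where Tbc1d1 had been high. The fold was 0.947 (0.737 to 1.22), with coefficients of variation of 13.4% and 13.1%, the smallest pair of the adaptors, kinases and Rab regulators. Without vehicle replicate 3 or farnesol replicate 1 the log2 fold change was 0.02 and 0.03.

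Slc2a4 (chromosome 11, 69942286 to 69948216), which encodes GLUT4, was measured at 272, 275 and 272 CPM in vehicle and 330, 276 and 280 CPM in farnesol libraries, from 2709 to 3747 counts. It was the 1 gene of the 10 whose groups did not overlap, as 8.82% of all genes tested did not (4.75% with farnesol higher), and the gap between the groups was narrow: farnesol replicate 2 lay beside vehicle replicate 2. The vehicle SD of 1.55 CPM was below the 5.06 CPM that counting error alone gives, so the vehicle libraries were closer than their depth can resolve. The means were 273 ± 1.55 and 295 ± 30.2 CPM and the fold 1.08 (0.880 to 1.33; edgeR adjusted p = 1). Without farnesol replicate 1 the log2 fold change was 0.03 in place of 0.11. When counts were scaled by library totals alone the groups overlapped, at 257, 248 and 310 CPM against 366, 260 and 274 CPM; 6.72% of all genes did not overlap on that scale. Slc2a4 is also expressed in adipocytes, whose 10 markers summed to 1810 to 2229 CPM in vehicle and 2064 to 2563 CPM in farnesol libraries (9 of 10 fitted higher, median log2 fold change 0.39; exact permutation p = 0.3). Car3 (means of 1508 and 1711 CPM in vehicle and farnesol) and Plin4 (205 and 197 CPM), which muscle fibres also express, made up most of that sum. Markers more restricted to adipocytes stood at 16.3 and 30.0002 CPM for Cidec, 1.89 and 4.62 CPM for Plin1, 3.84 and 7.82 CPM for Lep and 33.4 and 45.9 CPM for Adipoq. The rest of the list stood at 5.75 and 10.5 CPM for Retn, 91.2 and 114 CPM for Cfd and 147 and 174 CPM for Fabp4. Lipe was level, at 24.27 and 24.34 CPM. The unadjusted p in edgeR was 0.00290 for Cidec, 0.0111 for Lep, 0.0175 for Retn and 0.0197 for Plin1. It was 0.0904 (Adipoq) or more for the rest of the list, and no marker passed the adjusted threshold. Slow and oxidative fibre markers summed to 3600 to 5814 CPM in vehicle and 4454 to 5817 CPM in farnesol libraries. Of these, 8 of 8 were fitted higher (median log2 fold change 0.24, exact permutation p = 0.6 for the sum). Myh2, at means of 3082 and 3185 CPM in vehicle and farnesol, made up most of that sum. Of the fast fibre markers 6 were fitted higher and 2 lower (median 0.12). The part of adipocytes or of fibre types in the Slc2a4 value was not tested.

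Slc2a1 (chromosome 4, 119108745 to 119137330), which encodes GLUT1, was at 6.52, 10.7 and 7.03 CPM in vehicle and 7.32, 8.87 and 7.43 CPM in farnesol libraries, from 68 to 106 counts. All 3 farnesol values lay within the vehicle range, and vehicle replicate 2 was the highest library. The fold was 0.975 (0.622 to 1.53), and without vehicle replicate 2 the log2 fold change was 0.22 in place of −0.04. Endothelial markers summed to 140 to 187 CPM in vehicle and 132 to 169 CPM in farnesol libraries (7 of 10 fitted lower). Schwann and perineurial markers summed to 46.2 to 65.3 and 60.4 to 79.5 CPM (6 of 7 tested higher), and erythroid markers to 3501 to 5684 and 5472 to 9725 CPM (5 of 7 higher). Their part in the Slc2a1 value was not tested, and in whole muscle fewer cells of a type and less RNA per cell cannot be told apart.

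**Figure D2:**
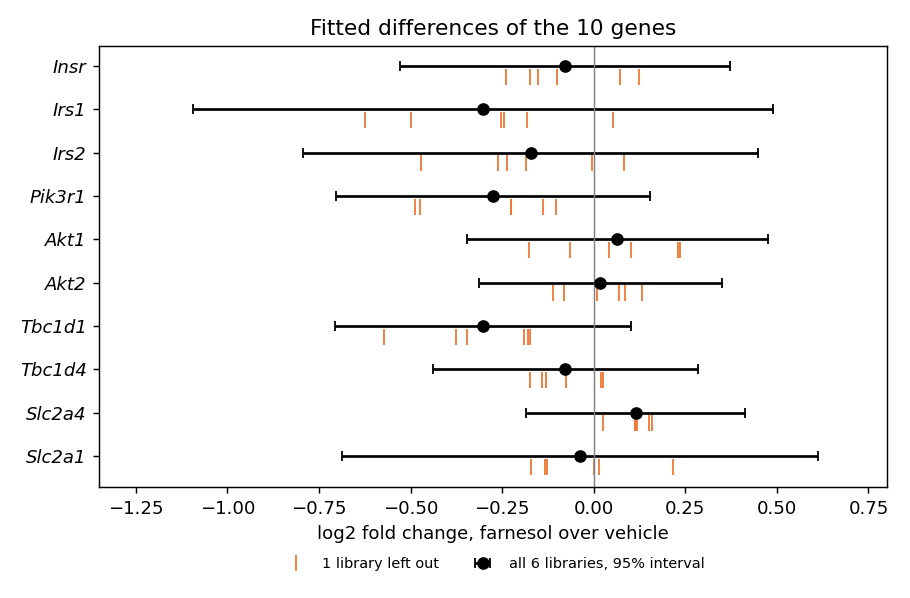
Log2 fold change of farnesol over vehicle (horizontal axis) for each gene from all 6 libraries, with 95% intervals (black), and from the 6 fits that leave 1 library out (orange ticks). Every interval includes 0, and the ticks of Pik3r1, Tbc1d1 and Slc2a4 stay on 1 side of it.

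The order of the transcript levels, averaged over the 6 libraries, was taken per kilobase of the longest GENCODE vM21 transcript and in CPM without that division. The tag design of these libraries calls for the undivided CPM, which are given after the values per kilobase. Slc2a4 led with 89.0 ± 7.13 CPM per kb (SD over 6 libraries), ahead of Akt2 at 34.8 ± 4.57 and Akt1 at 29.7 ± 6.61 CPM per kb. Pik3r1 (10.5 ± 2.66), Tbc1d1 (9.35 ± 2.13) and Tbc1d4 (8.25 ± 1.01 CPM per kb) followed, then Irs1 at 5.75 ± 2.13, Insr at 3.18 ± 0.645, Slc2a1 at 2.45 ± 0.477 and Irs2 at 1.78 ± 0.474 CPM per kb. Slc2a4 exceeded Akt2, and Akt2 exceeded Akt1, in 6 of 6 libraries. Pik3r1 exceeded Tbc1d1, and Tbc1d1 exceeded Tbc1d4, in 4 of 6 libraries each, and Insr exceeded Slc2a1 in 5 of 6, so per kilobase these neighbours were not separated beyond the spread between libraries. In CPM without division by length the order was the same except that Irs2 (11.3) stood above Slc2a1 (7.98 CPM), in 5 of 6 libraries. On that scale Akt1 exceeded Pik3r1, Pik3r1 exceeded Tbc1d1, and Tbc1d1 exceeded Tbc1d4 in 4 of 6 libraries each, and Tbc1d4 exceeded Irs1 in 3 of 6, so the 5 genes from Akt1 to Irs1 were not separated as neighbours in CPM. Irs1 exceeded Insr, and Insr exceeded Irs2, in 6 of 6. Libraries of this kind are designed to read 1 tag per transcript, so the undivided CPM are the values to read. Akt1 stood well above Pik3r1 per kilobase (29.7 and 10.5), but close to it in CPM (79.9 and 74.5). Whether counts rose with transcript length in these libraries was not tested.

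**Figure D3:**
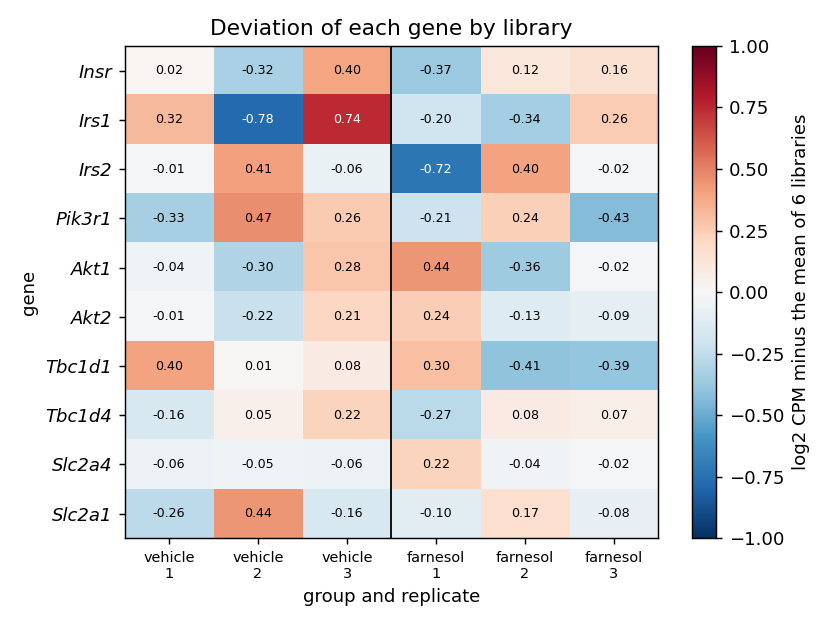
Log2 CPM of each gene (rows) in each library (columns) minus the gene's mean over the 6 libraries. Irs1 spans −0.78 to 0.74 within the vehicle group, while Slc2a4 departs from its mean by more than 0.10 in farnesol replicate 1 only, at 0.22.

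The libraries did not order these genes alike. Irs1 and Irs2 were high in different libraries: in vehicle replicate 2 Irs1 lay 0.78 below and Irs2 0.41 above its mean on the log2 scale, a difference that needs no scaling factor to see, since the count ratio of Irs1 to Irs2 was 1.98 there and 5.73 and 7.98 in the other vehicle libraries. In farnesol libraries this ratio was 6.62, 2.70 and 5.52. Replicate 2 was thus the lowest of each group. The ratio of Akt2 to Akt1 was the steadiest, 2.05, 2.12 and 1.90 in vehicle and 1.74, 2.35 and 1.91 in farnesol. Tbc1d4 to Tbc1d1 stood at 0.607, 0.924 and 0.993 in vehicle and 0.607, 1.26 and 1.23 in farnesol, with replicate 1 low in each group and the other 2 farnesol libraries above all vehicle libraries. Slc2a4 to Slc2a1 ran from 25.6 to 41.8 in vehicle and 31.2 to 45.1 in farnesol libraries.

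The groups overlapped in all 4 ratios. With this number of libraries the smallest p that an exact two-sided permutation test allows is 0.1. It could not have called a difference at 0.05, so whether the ratios differ between groups is not decided by it. The differences in mean log2 ratio were 0.04, −0.03, 0.25 and 0.12 in the order given, with exact two-sided permutation p of 1, 1, 0.6 and 0.7 (Benjamini-Hochberg adjusted over the 4 ratios, 1 for each). These ratios were formed after the values had been seen. The replicate numbers name libraries and were not found to pair them.

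**Figure D4:**
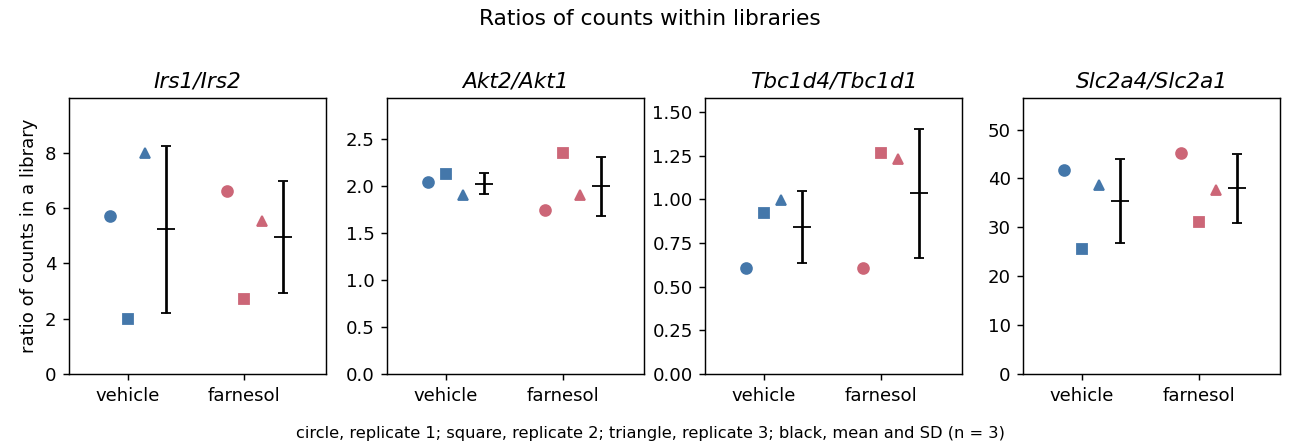
Ratio of raw counts of 2 genes within each library (vertical axes from 0), for vehicle (blue) and farnesol (red) libraries, with mean and SD of 3 in black. The Irs1 to Irs2 ratio is lowest in replicate 2 of each group, at 1.98 and 2.70, and the groups overlap in all 4 panels.

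The pathway around these genes was followed in 97 further genes in 7 lists by role, of which 92 passed the filter. None was called in edgeR over all genes, 3 had an unadjusted p under 0.05, beside 3.01% of all genes tested, and 42 were higher and 50 lower after farnesol, with a median log2 fold change of −0.01. Groups did not overlap in 5 of the 92, beside 8.82% of all genes tested (4.75% higher and 4.07% lower after farnesol). These 5 were Tsc1, Gsk3b, Ptpn1 and Txnip, all lower, and Ralgapb, higher.

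Among 20 negative regulators 19 were tested, and 9 were higher and 10 lower, with a median of −0.02. Ptpn1, the PTP1B phosphatase that removes phosphate from the insulin receptor, was at 35.2, 41.1 and 32.8 CPM in vehicle and 28.2, 28.2 and 24.1 CPM in farnesol libraries. Every farnesol value lay below every vehicle value, with a log2 fold change of −0.44 (SE 0.19; edgeR unadjusted p = 0.0319, adjusted p = 1). Txnip is an arrestin-like protein that promotes removal of GLUT1 and GLUT4 from the surface. It was at 469, 475 and 520 CPM in vehicle and 443, 331 and 416 CPM in farnesol libraries, also without overlap (−0.30, SE 0.15, edgeR unadjusted p = 0.0608). By library totals its groups overlapped: farnesol replicate 1 held 5025 of 10231046 counts and vehicle replicate 1 held 4896 of 11058539. Socs2, a suppressor of cytokine and growth hormone signals, stood at 16.6 ± 3.70 and 11.7 ± 4.78 CPM (−0.51, SE 0.28), and at a log2 fold change of −0.34 without farnesol replicate 1.

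Of 10 Akt substrates and partners of substrates, 9 were tested, 5 higher and 4 lower. Tsc1, the partner of the Akt substrate TSC2 in the complex that restrains mTORC1, was at 66.3, 57.7 and 61.4 CPM in vehicle and 43.7, 53.4 and 43.2 CPM in farnesol libraries. Its groups did not overlap, and its unadjusted p of 0.0259 in edgeR was the smallest of the 92 (log2 fold change −0.40, SE 0.17; adjusted p = 1). Tsc2 itself was at 37.8 ± 5.94 and 39.1 ± 3.43 CPM (0.05, SE 0.18). Gsk3b, the glycogen synthase kinase that Akt inhibits, was at 226, 228 and 254 CPM in vehicle and 180, 218 and 204 CPM in farnesol libraries (−0.23, SE 0.15). Bad, a cell death regulator that Akt phosphorylates, was at 11.2 ± 1.36 and 14.9 ± 3.35 CPM (0.42, SE 0.26), and its log2 fold change without farnesol replicate 1 was 0.22. The FoxO gene Foxo1 stood at 173 ± 70.8 and 167 ± 35.2 CPM.

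The 23 genes of GLUT4 vesicle traffic split into 11 higher and 12 lower. Rab8b, a Rab GTPase of vesicle transport, was at 1.92, 4.05 and 5.17 CPM in vehicle and 0.705, 2.68 and 0.826 CPM in farnesol libraries, which overlapped (log2 fold change −1.39, SE 0.60; edgeR unadjusted p = 0.0317, adjusted p = 1). Counts this low carry a large counting error. Ralgapb, the shared subunit of the complexes that switch off the Ral GTPases, was the 1 gene of the 92 that was higher without overlap. It was at 24.1, 24.0 and 24.3 CPM in vehicle and 32.3, 29.6 and 29.0 CPM in farnesol libraries (0.33, SE 0.19, edgeR unadjusted p = 0.101). The vehicle SD was 0.178 CPM at 237 to 287 counts, so these libraries were closer than counts of this size can resolve. Myo5a, a vesicle motor, stood at 16.3 ± 4.23 and 11.8 ± 1.51 CPM (−0.47, SE 0.26).

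**Figure D5:**
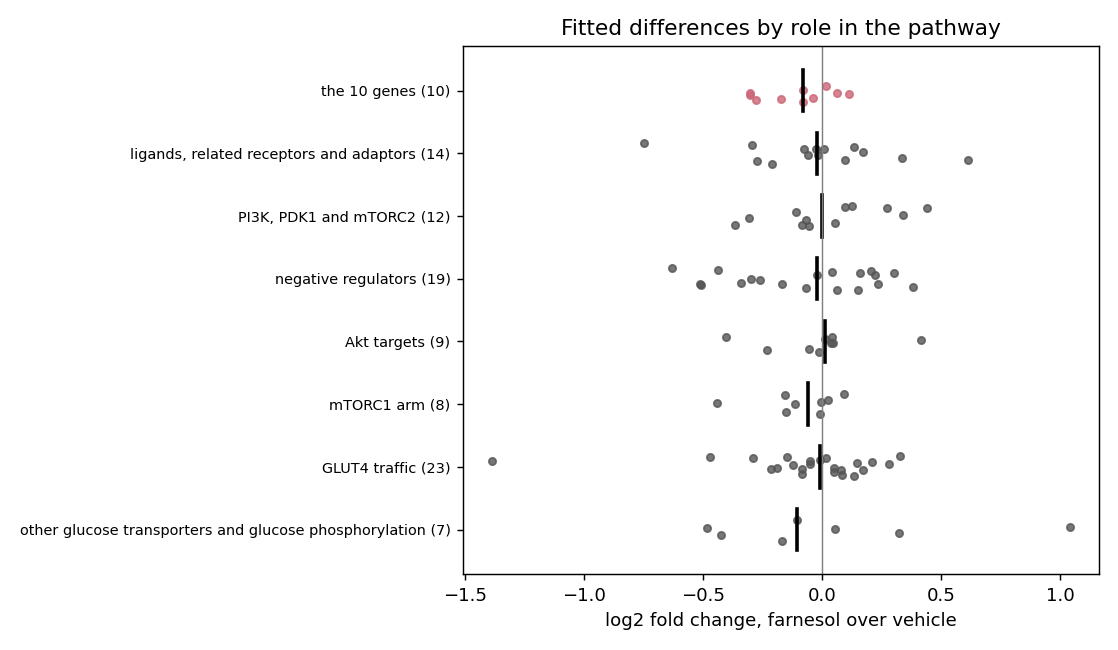
Log2 fold change of farnesol over vehicle (horizontal axis) for the 10 genes (red) and for the tested genes of the 7 role lists (grey), with list medians as black bars and the number tested in brackets. Medians lie between −0.10 and 0.01, and no point passed the test.

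Ligands, related receptors and adaptors divided into 6 higher and 8 lower of 14. Igfbp4, an IGF-binding protein, stood at 110 ± 16.3 and 91.2 ± 11.5 CPM (−0.27, SE 0.16) and Sh2b2, an adaptor of the receptor kinases, at 3.77 ± 1.63 and 2.24 ± 0.838 CPM (−0.75, SE 0.51). Igfbp4 was at −0.16 and Sh2b2 at −0.43 on the log2 scale when vehicle replicate 3 was left out. Igfbp5 was at 499, 510 and 192 CPM in vehicle and 570, 466 and 801 CPM in farnesol libraries, where the low vehicle replicate 3 carried much of the difference: the log2 fold change was 0.61 (SE 0.41), and 0.28 without that library. Phosphoinositide 3-kinase, PDK1 and mTORC2 genes divided into 6 and 6 of 12. Pik3c2a, a class II kinase, stood at 7.59 ± 2.73 and 10.4 ± 3.004 CPM (0.44, SE 0.32), the shared mTOR complex subunit Mlst8 at 9.13 ± 4.30 and 7.07 ± 2.91 CPM (−0.37, SE 0.38) and the catalytic subunit Pik3cb at 7.32 ± 1.56 and 5.91 ± 0.840 CPM (−0.31, SE 0.33). Leaving out vehicle replicate 3 moved Pik3c2a to 0.76 and Mlst8 to 0.066 on the log2 scale, and leaving out farnesol replicate 1 moved Mlst8 to −0.63.

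In the mTORC1 arm 2 of 8 genes were higher and 6 lower. Eif4ebp1, a translation repressor that mTORC1 inhibits, stood at 45.3 ± 23.3 and 33.3 ± 12.4 CPM (−0.44, SE 0.40). Rps6, the ribosomal protein phosphorylated by S6 kinase, was at 94.3 ± 5.10 and 101 ± 12.1 CPM (0.09, SE 0.16), and Rheb, the GTPase that activates mTORC1 and is itself farnesylated, at 33.1 ± 3.83 and 30.6 ± 7.15 CPM (−0.11, SE 0.20). Leaving out vehicle replicate 3 moved Eif4ebp1 to 0.071 and Rheb to −0.042 on the log2 scale. Leaving out farnesol replicate 1 moved Rps6 to −0.010 and Rheb to −0.039. Of 10 other transporters and hexokinases 7 were tested, 3 higher and 4 lower. Hk1, a hexokinase that traps glucose in the cell, stood at 9.24 ± 2.23 and 6.91 ± 1.56 CPM (−0.42, SE 0.32), Slc2a8 (GLUT8) at 10.5 ± 1.69 and 13.1 ± 3.07 CPM (0.32, SE 0.27) and Slc2a10 (GLUT10) at 2.37 ± 0.194 and 1.69 ± 0.988 CPM (−0.48, SE 0.62). Farnesol replicate 1 carried much of the Slc2a8 value, which was 0.11 on the log2 scale without it, while Slc2a10 was at −1.07 without it. Hk1 was at −0.22 without vehicle replicate 3 and −0.25 without farnesol replicate 1. Hk2, the main hexokinase of muscle, named after its value was seen, was at 502 ± 52.0 and 467 ± 32.1 CPM (−0.10, SE 0.15). The transporter genes Slc2a5 and Slc2a6 had 0 counts in all 6 libraries, where a count of 0 allows up to 3 counts, or 0.236 to 0.303 CPM of the unscaled library total.

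The genes whose profile over the 6 libraries lay closest to each transporter were taken by the root mean square difference of centred log2 CPM. For Slc2a4, among 4249 genes of at least 20 CPM, they were Ndufs5 (0.032), Tusc2 (0.034) and Nap1l4 (0.036). For Slc2a1, among 4250 genes, they were Usp19 (0.038), Dbt (0.072) and Dnajc25 (0.082). Slc2a1 itself lay below 20 CPM, and counting error alone gave an SD of 0.877 CPM at its vehicle mean of 8.09 CPM. These matches are closer than that error, so they follow a profile that its counts do not resolve. With 6 libraries and this many genes, close profiles are a description of these libraries only.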

How the data were processed

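Each library was a LEXOGEN Quant-Seq preparation from 500 ng of RNA, per the labels' protocols, a design that reads tags near the 3′ end of transcripts. Each deposited table lists the raw counts of 1 library by gene symbol; whole numbers with unequal totals identified the unit. The submitters' processing notes name Bowtie2, bedtools and mm10. Tool versions, annotation and the handling of strand, copied reads and multiple matches: not given in the sources used here.

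Counts of 35 symbols listed on several of the 23282 lines were summed. Groups came from the sample titles, which call the libraries of each group biological replicates. No label names the animal behind each library. The headers of the count columns carry a letter and a number that do not all match the title numbers, and the labels do not say what these mean. The p-values therefore rest on differences among libraries, and the parts of animals and of library preparation in these were not tested. edgeR 4.0.16 in R 4.3.3 was fitted to all genes (filterByExpr, TMM factors of 0.905 to 1.14, robust glmQLFit and glmQLFTest, Benjamini-Hochberg adjustment over all 11674 genes, threshold 0.05) and was tested on simulated data. The common biological coefficient of variation was 25.7%. SE was the size of the log2 fold change divided by the root of the F statistic; log2 CPM used a prior count of 2; counting intervals and limits cover counting error only. Alternatives used DESeq2 1.42.0 and limma 3.58.1, other scalings and filters, the replicate number as a block, and each library left out.

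The members and lists were chosen with earlier results of these data known. All members were named, with up to 3 genes of smallest unadjusted p per role list at a mean of at least 2 CPM and the 3 nearest profiles per transporter; other names were chosen after their values were seen. Libraries with the same replicate number in the titles did not deviate together (correlations across genes of 0.04, 0.06 and −0.02), so these numbers were not taken as pairs. Gene positions and promoters are from RefSeq (GRCm38.p6), 1-based.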

Additional observations from a re-analysis of the deposited data

How the results depend on the processing

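With each library left out in turn, the count of all genes called ranged from 0 to 3 (3 without vehicle replicate 2), and the median log2 fold change of the 10 genes from −0.17 without vehicle replicate 1 to 0.036 without vehicle replicate 3. edgeR called 13 of 16624 genes without a filter on low counts, DESeq2 0 and limma-voom 0. None of these calls was one of the 10 genes or of the 97 pathway genes under any of the 15 alternatives. Pik3r1, Tbc1d1 and Slc2a4 kept their direction under all 15, as did 14 of the 21 pathway genes named by rule. Sh2b2, Rab8b and Slc2a10 kept theirs under the 14 that could be run, since a 5 CPM minimum removed these 3. The fits with a library left out gave ranges that cross 0 for Insr (−0.24 to 0.12), Irs1 (−0.62 to 0.051), Irs2 (−0.47 to 0.081), Akt1 (−0.18 to 0.24), Akt2 (−0.11 to 0.13), Tbc1d4 (−0.17 to 0.026), Slc2a1 (−0.17 to 0.22), Mlst8 (−0.64 to 0.066), Eif4ebp1 (−0.73 to 0.071) and Rps6 (−0.010 to 0.16). limma-voom gave 0.0081 for Slc2a1. Leaving out vehicle replicate 3 and farnesol replicate 1 together, chosen after seeing the data, gave opposite directions for Insr (0.27), Irs1 (0.11), Akt1 (−0.012), Tbc1d4 (0.12), Eif4ebp1 (0.051), Rps6 (−0.026) and Rheb (0.029), and −0.62 for Tbc1d1. The causes were not tested. With the replicate block 0 genes were called and the median of the 10 was −0.07; Tbc1d1 had an unadjusted edgeR p of 0.0460 and an adjusted p of 0.999 with the block. With 68 to 106 counts for Slc2a1 and 74 to 173 for Irs2, depth limits these 2 genes most.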
